A study of Mus musculus with 30 samples.

Results

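The 6 tumors of mice on intermittent calorie restriction after obesity (DIO-ICR) were compared with the 6 tumors of mice that had undergone vertical sleeve gastrectomy after obesity (DIO-VSG). These 12 arrays are all that carry either group label, among 30 arrays in 5 groups of 6. All mice were C57BL/6NCrl females that entered the study as young adults, and every mouse gave 1 tumor, so the spread between tumors is the spread between mice. E0771 cells, a mammary carcinoma line of the same mouse strain, were injected 25 weeks after randomization into mammary fat pad number 4. Both groups had first become obese on a 60% high-fat diet.

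DIO-ICR mice then had a sham operation and ate restricted diets, mild restriction on most days of the week and severe restriction with a high-protein diet on separate days. DIO-VSG mice had most of the stomach removed and ate a low-fat diet afterwards with no imposed restriction. Operation, diet and calorie restriction therefore differ together between the groups and cannot be told apart here. The remaining groups gave a background: obese mice kept on the high-fat diet (DIO-HFD), obese mice on chronic calorie restriction (DIO-CCR) and mice that never became obese on a low-fat diet (CON-LFD), each with a sham operation. All tumors come from 1 cell line.

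A tumor grown in the fat pad holds cancer cells together with blood vessels, fibroblasts and leukocytes, and its RNA is the sum of all of these. Neutrophils are short-lived myeloid cells that carry ready-made granules of antimicrobial proteins and proteases. Natural killer cells and cytotoxic T cells kill target cells with perforin and granzymes and secrete interferon gamma. The mouse mammary fat pad also contains adipocytes, ducts and a lymph node, and it lies on the muscle of the body wall, so an excised tumor can take some of these tissues with it.

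Expression was measured on the log2 scale, where a difference of 1 is a doubling, for 19505 named genes. The values reached down to 1.48 and up to 18.57, and the median of an array lay between 6.41 and 6.79. Arrays have no read depth, no detection calls accompany the values, and the number of arrays limits the precision, with a median standard error of 0.18 for the difference between both groups. Mki67, a marker of dividing cells, lay between 13.32 and 13.90 in DIO-ICR tumors and between 13.11 and 13.78 in DIO-VSG tumors. The epithelial keratin gene Krt8 ranged between 8.47 and 10.90 in DIO-ICR tumors and between 8.75 and 11.25 in DIO-VSG tumors. Epcam, an adhesion protein of epithelium, was low, with 4.76 to 6.42 in DIO-ICR tumors and 3.09 to 8.64 in DIO-VSG tumors, where only tumor 1 exceeded the median of its array.

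Some tumors held lymph node or skeletal muscle transcripts, and all of those in this comparison were DIO-VSG tumors. A score was computed for each list of marker genes as the mean distance of its genes from their medians over the 30 arrays. The lymph node score was 5.80 in DIO-VSG tumor 1 and 1.38 in DIO-VSG tumor 5, whereas DIO-ICR tumors lay between 0.00 and 0.30. The skeletal muscle score was 5.53 in DIO-VSG tumor 4 and 1.91 in DIO-VSG tumor 3, whereas DIO-ICR tumors lay between -0.02 and 0.13. Tumors with a score over 1 are called lymph node tumors or muscle tumors below, which applied to 0 DIO-ICR tumors and to 4 DIO-VSG tumors and left 2 DIO-VSG tumors of neither kind. Adipocyte scores were 1.01, 0.63, 0.20, 0.79, 1.70 and 1.11 in DIO-ICR tumors 1 to 6, against 2.50, -0.76, -1.47, -0.91, 0.51 and -0.84 in DIO-VSG tumors 1 to 6. All 6 DIO-ICR tumors thus scored above 0 for adipocyte genes, and 3 of them above 1, while among DIO-VSG tumors only the lymph node tumors scored above 0 and 1 of them above 1.

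**Figure D1:**
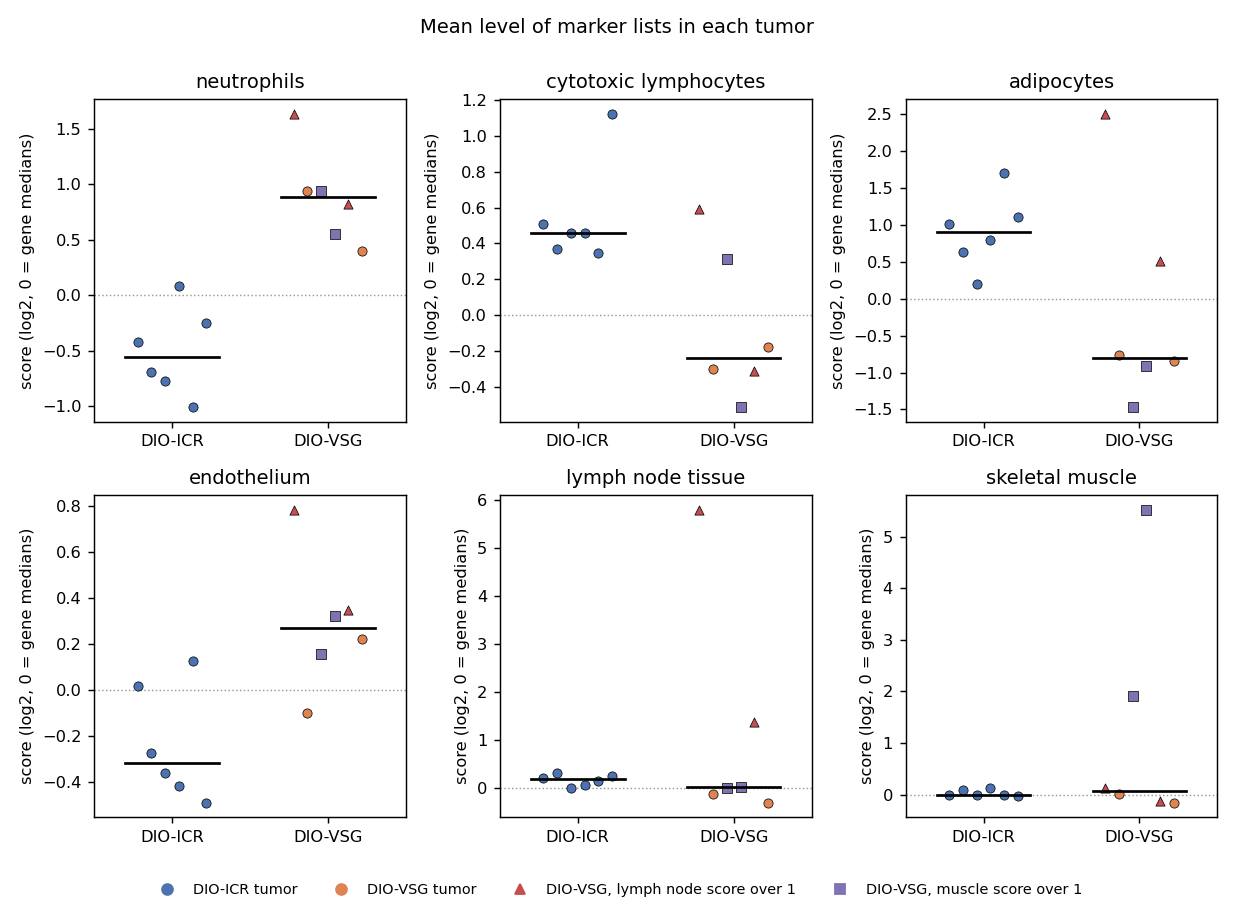
Score of 6 marker lists in each DIO-ICR tumor (left) and DIO-VSG tumor (right), on the log2 scale with 0 at the gene medians of the 30 arrays. Lines mark group medians, triangles the 2 lymph node tumors and squares the 2 muscle tumors. Neutrophil scores of DIO-ICR tumors end at 0.08 and those of DIO-VSG tumors begin at 0.39.

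Few genes differed between the groups beyond the spread between mice. Of 19505 genes, 6 passed at an adjusted p under 0.05 in limma (0.0308%), 2 of them higher in DIO-ICR tumors (0.0103%) and 4 lower (0.0205%). The genes lower in DIO-ICR tumors were S100a9 and Retnlg, both products of neutrophils, Plat, which encodes tissue plasminogen activator, and Txndc8. The genes higher in DIO-ICR tumors were Mmp25, a membrane-anchored metalloproteinase, and Sgpp1, a phosphatase of sphingosine 1-phosphate. At an unadjusted p under 0.05, 1632 genes differed (8.37%), 946 higher (4.85%) and 686 lower (3.52%) in DIO-ICR tumors. Values of the groups did not overlap for 37 genes higher (0.19%) and 29 genes lower (0.149%) in DIO-ICR tumors.

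The count of 6 changed when any single tumor but DIO-VSG tumor 3 was left out, and was 4 without DIO-VSG tumor 1 or 5. It was 0 in limma without DIO-ICR tumor 2, 3 or 5 or DIO-VSG tumor 2, 4 or 6, with 1420 to 1698 genes at an unadjusted p under 0.05, it was 1 without DIO-ICR tumor 4 or 6, and it was 7 without DIO-ICR tumor 1. Without the lymph node tumors 15 genes passed, 3 of them among the 6. Without the muscle tumors 2 passed, 1 of them among the 6. Without tumors of either kind none passed in limma, with 1504 genes at an unadjusted p under 0.05 and only 2 DIO-VSG tumors in the fit. Each of the 6 genes kept its direction under every alternative in which it was tested.

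**Figure D2:**
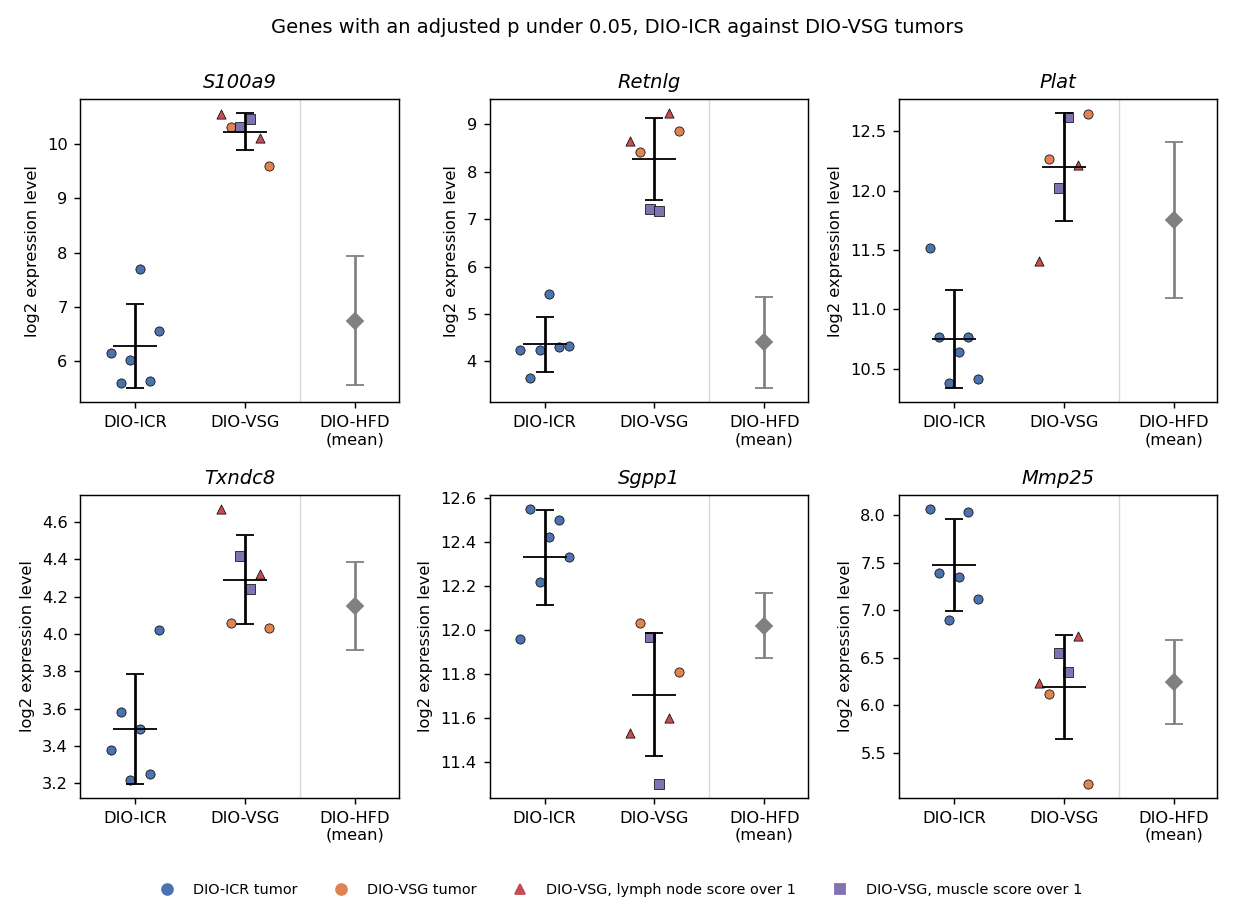
Log2 expression level of the 6 genes that passed, in each DIO-ICR tumor and DIO-VSG tumor, with the mean and SD of 6 DIO-HFD tumors in grey as background. Black bars are group means with SD, triangles lymph node tumors and squares muscle tumors. S100a9, Retnlg, Txndc8 and Mmp25 do not overlap between the groups, and Plat and Sgpp1 do.

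S100a9 encodes a calcium-binding protein that pairs with S100a8 to form calprotectin, an abundant protein of neutrophil cytoplasm. It measured 6.15, 5.60, 6.03, 7.69, 5.64 and 6.55 in DIO-ICR tumors 1 to 6, against 10.56, 10.32, 10.32, 10.46, 10.12 and 9.60 in DIO-VSG tumors 1 to 6. Every DIO-ICR tumor lay below every DIO-VSG tumor, and the DIO-VSG values were close together whether or not the tumor held lymph node or muscle. S100a9 was thereby 15.5-fold lower in DIO-ICR tumors, a log2 difference of -3.95 ± 0.67 (SE, adjusted p = 0.0298). Means were 6.28 ± 0.78 in DIO-ICR and 10.23 ± 0.34 in DIO-VSG tumors (SD, n = 6 each). The difference was -3.90 without the lymph node tumors (adjusted p = 0.0469), -3.87 without the muscle tumors (adjusted p = 0.119) and -3.68 without either (adjusted p = 0.284).

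Retnlg, a resistin-like protein made by neutrophils and their precursors in mouse, followed the same order of groups. DIO-ICR tumors 1 to 6 had 4.23, 3.65, 4.23, 5.43, 4.31 and 4.32, against 8.65, 8.41, 7.22, 7.18, 9.24 and 8.87 in DIO-VSG tumors 1 to 6. The muscle tumors were the lowest of the DIO-VSG tumors, and DIO-ICR tumor 4 was the highest of its group for Retnlg as for S100a9. The other 5 DIO-ICR values, 3.65 to 4.32, were near the bottom of the scale, so no fold is given, and the difference was -3.90 ± 0.74 (SE, adjusted p = 0.0445). It was -3.56 without the lymph node tumors (adjusted p = 0.0876), -4.43 without the muscle tumors (adjusted p = 0.0404) and -4.28 without either (adjusted p = 0.145).

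Of 18 neutrophil genes listed, 17 were measured, and S100a9 and Retnlg were the 2 that passed, both lower. The list's median difference was -1.27, against 0.02 over all genes, and 15 of its genes were lower in sign in DIO-ICR tumors, where 45.7% of all genes were. At an unadjusted p under 0.05, 10 of the 17 were lower, against 3.52% of all genes, and 0 higher, against 4.85%. Values of 4 genes did not overlap, namely S100a9, Retnlg, Mmp8 and Trem1, all lower, as 0.149% of all genes were. In such bulk RNA, fewer cells of a type and less RNA per cell cannot be told apart. The list's median was -1.08 without the lymph node tumors, -1.46 without the muscle tumors and -0.82 without either. In these settings 10, 9 and 7 genes were lower at an unadjusted p under 0.05, and 1, 0 and 0 were higher.

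Mmp8, the neutrophil collagenase, measured 5.38, 5.08, 5.81, 5.79, 3.48 and 5.56 in DIO-ICR tumors and 6.18, 7.63, 7.82, 7.26, 6.78 and 6.94 in DIO-VSG tumors. Its difference of -1.92 ± 0.42 did not pass (adjusted p = 0.155), although the highest DIO-ICR tumor lay below the lowest DIO-VSG tumor. Trem1, a receptor that amplifies inflammatory signals in myeloid cells, ranged between 4.78 and 6.30 in DIO-ICR tumors and between 6.35 and 8.14 in DIO-VSG tumors (adjusted p = 0.31). For S100a8, the partner of S100a9, the range was wider in DIO-ICR tumors, 5.71 to 9.45, and overlapped with 8.17 to 10.81 in DIO-VSG tumors, a difference of -2.24 ± 0.61 (adjusted p = 0.31). Cxcr2, the chemokine receptor that draws neutrophils out of the blood, averaged 4.57 ± 0.66 in DIO-ICR tumors and 6.37 ± 0.99 in DIO-VSG tumors (SD, n = 6 each, adjusted p = 0.314).

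Genes of immature neutrophils are listed apart here. Ngp, a granule protein of developing neutrophils, lay between 2.26 and 2.78 in DIO-ICR tumors, near the bottom of the scale, and in DIO-VSG tumors it was high only in the lymph node tumors, with 9.91 in tumor 1 and 6.82 in tumor 5 beside 2.32 to 3.41 in the others. Its difference of -2.13 ± 0.76 did not pass (adjusted p = 0.405). The primary granule genes Mpo and Elane differed by 0.04 (adjusted p = 0.986) and -0.30 (adjusted p = 0.786), and Camp by -0.09 (adjusted p = 0.966). Sorl1, another gene of the neutrophil list and not placed among the immature ones, was also highest in DIO-VSG tumor 1, at 11.81. It measured 8.49 to 9.25 in the other DIO-VSG tumors and 7.35 to 8.59 in DIO-ICR tumors.

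**Figure D3:**
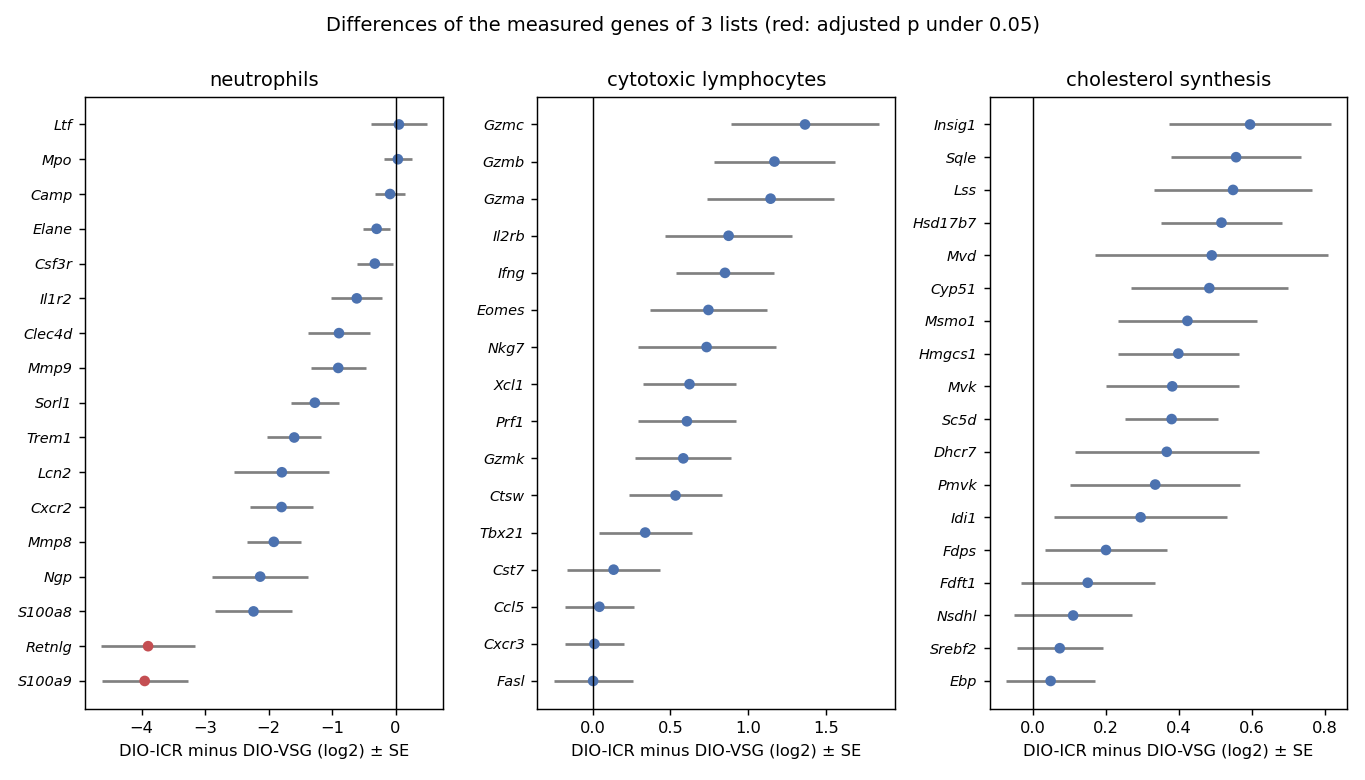
Difference DIO-ICR minus DIO-VSG on the log2 scale, with its standard error, for each measured gene of the neutrophil, cytotoxic lymphocyte and cholesterol synthesis lists, from 6 tumors per group. Red points passed at an adjusted p under 0.05. Neutrophil genes spread between -3.95 and 0.05, cytotoxic genes between 0.00 and 1.37, and cholesterol synthesis genes between 0.05 and 0.59.

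The stretches before the start of S100a9, Retnlg, Mmp8 and Trem1 are shown because their groups of values did not overlap and because the myeloid transcription factors of the C/EBP family, which drive granule genes, bind sites with letters like those marked. Each is the 250 bases upstream of the gene's start in RefSeq on build GRCm38.p6, read 5′ to 3′ on the gene's own strand, and capitals mark the letters TTGCNNAA found on either strand.
S100a9 promoter (chr3:90695722-90695971, minus strand): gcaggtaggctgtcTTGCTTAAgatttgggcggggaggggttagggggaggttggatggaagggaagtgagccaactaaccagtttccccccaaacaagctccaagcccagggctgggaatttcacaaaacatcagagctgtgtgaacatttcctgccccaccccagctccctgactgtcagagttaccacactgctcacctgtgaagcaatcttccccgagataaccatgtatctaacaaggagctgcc
Retnlg promoter (chr16:48872358-48872607, plus strand): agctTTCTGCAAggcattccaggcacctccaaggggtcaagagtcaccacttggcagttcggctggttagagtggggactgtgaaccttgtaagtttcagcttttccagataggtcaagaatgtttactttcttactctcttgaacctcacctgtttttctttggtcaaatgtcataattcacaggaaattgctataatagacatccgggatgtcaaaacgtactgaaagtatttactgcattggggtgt
Mmp8 promoter (chr9:7558179-7558428, plus strand): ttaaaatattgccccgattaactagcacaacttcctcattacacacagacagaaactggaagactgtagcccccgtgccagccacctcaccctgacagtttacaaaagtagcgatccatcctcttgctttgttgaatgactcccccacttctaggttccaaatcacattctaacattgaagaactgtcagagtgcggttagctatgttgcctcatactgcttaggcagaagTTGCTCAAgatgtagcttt
Trem1 promoter (chr17:48232489-48232738, plus strand): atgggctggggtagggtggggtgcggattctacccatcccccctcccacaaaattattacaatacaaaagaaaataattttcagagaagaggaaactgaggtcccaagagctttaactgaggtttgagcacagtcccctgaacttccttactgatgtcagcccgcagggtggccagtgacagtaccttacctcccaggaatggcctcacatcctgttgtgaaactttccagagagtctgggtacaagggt
The match began 236 bases before the start in S100a9, 246 bases before it in Retnlg and 19 bases before it in Mmp8, and the Trem1 window held none. The same letters occurred in 8 of the 17 neutrophil list genes with a window (47.1%) and in 10.8% of 27025 genes with one. A match describes these letters and shows no binding.

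Plat converts plasminogen to plasmin, the protease that dissolves fibrin. DIO-ICR tumors 1 to 6 had 11.52, 10.77, 10.38, 10.64, 10.77 and 10.41, against 11.41, 12.27, 12.02, 12.62, 12.22 and 12.65 in DIO-VSG tumors 1 to 6. Only DIO-ICR tumor 1 reached the DIO-VSG range, where it lay above DIO-VSG tumor 1, the tumor with the most lymph node RNA. Plat was 2.73-fold lower in DIO-ICR tumors, a difference of -1.45 ± 0.25 (SE, adjusted p = 0.0298), and -1.64 without the lymph node tumors (adjusted p = 0.00686). Without the muscle tumors it was -1.39 (adjusted p = 0.162), and without either kind -1.71 (adjusted p = 0.111). Plat was the only one of 6 measured genes of the plasminogen system that passed. Plg, the plasminogen gene itself, differed by -0.18 (adjusted p = 0.827), Vtn, which encodes the adhesive protein vitronectin, by -0.37 (adjusted p = 0.85), and Serpinb2, an inhibitor of plasminogen activators, by -0.16 (adjusted p = 0.987).

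Mmp25 encodes a metalloproteinase tethered to the cell surface, known in human from leukocytes. It measured 8.07, 7.39, 6.90, 7.35, 8.04 and 7.12 in DIO-ICR tumors, against 6.24, 6.12, 6.55, 6.35, 6.73 and 5.17 in DIO-VSG tumors. The groups did not overlap, and Mmp25 was 2.44-fold higher in DIO-ICR tumors, a difference of 1.28 ± 0.24 (SE, adjusted p = 0.0445). It was 1.43 without the lymph node tumors (adjusted p = 0.0224), 1.41 without the muscle tumors (adjusted p = 0.119) and 1.83 without either (adjusted p = 0.111). The sign of Mmp25 was thus opposite to that of S100a9 and Retnlg.

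Sgpp1 removes the phosphate of sphingosine 1-phosphate, a lipid signal for leukocyte traffic and vessels. Its values were 11.96, 12.55, 12.22, 12.42, 12.50 and 12.33 in DIO-ICR tumors, against 11.53, 12.03, 11.97, 11.30, 11.60 and 11.81 in DIO-VSG tumors. DIO-ICR tumor 1 lay within the DIO-VSG range. The difference of 0.62 ± 0.12 was small, 1.54-fold, and passed (adjusted p = 0.0445), and it was 0.41 without tumors of either kind (adjusted p = 0.484).

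Txndc8, a thioredoxin-like gene known from testis, was near the bottom of the scale in both groups, with 3.38, 3.58, 3.22, 3.49, 3.25 and 4.02 in DIO-ICR tumors and 4.67, 4.06, 4.42, 4.24, 4.32 and 4.03 in DIO-VSG tumors. The highest DIO-ICR value was just below the lowest DIO-VSG value, at 4.02 and 4.03. The difference was -0.80 ± 0.15 (SE, adjusted p = 0.0445), and -0.56 without tumors of either kind (adjusted p = 0.454).

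The next 14 named genes by p-value did not pass, with adjusted p between 0.12 and 0.215. Tfrc, the transferrin receptor that brings iron into dividing cells, had 13.56, 13.73, 13.90, 13.89, 13.95 and 13.69 in DIO-ICR tumors, against 12.89, 12.50, 13.22, 12.08, 12.91 and 12.25 in DIO-VSG tumors. Its groups did not overlap, at a difference of 1.15 ± 0.25 (adjusted p = 0.155), and it passed without the lymph node tumors (1.27, adjusted p = 0.0469). Tnc, the matrix protein tenascin C, ranged between 9.05 and 11.70 in DIO-ICR tumors and between 11.24 and 13.23 in DIO-VSG tumors, a difference of -2.08 ± 0.47 (adjusted p = 0.162). Ch25h, whose product makes 25-hydroxycholesterol, ranged between 9.89 and 10.55 in DIO-ICR tumors and between 8.30 and 10.17 in DIO-VSG tumors. Its difference of 1.21 ± 0.28 did not pass (adjusted p = 0.188) but passed without the muscle tumors (1.52, adjusted p = 0.0404).

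Disp2, a relative of the hedgehog-release protein dispatched, differed by -1.10 ± 0.24 (adjusted p = 0.152), and Trp53i11, a p53-inducible gene, by -1.50 ± 0.36 (adjusted p = 0.21). Tnip3, which binds the NF-kB inhibitor A20, differed by 1.05 ± 0.25 (adjusted p = 0.21), with 9.52 to 10.91 in DIO-ICR tumors above 8.78 to 9.36 in DIO-VSG tumors. Sapcd2, which helps orient the mitotic spindle, differed by 0.84 ± 0.20 (adjusted p = 0.215), and Tmem258, a subunit of the enzyme that attaches sugar chains to proteins, by 0.62 ± 0.15 (adjusted p = 0.215). The transcription elongation factor gene Tcea2 differed by 0.86, the chromatin regulator gene Sfmbt1 by 0.55 and the helix-loop-helix factor gene Tal2 by 0.66, while the protease gene Habp2 differed by -0.87 and the germ cell gene Samt4 by -0.84.

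Genes of cytotoxic lymphocytes were higher in sign in DIO-ICR tumors without any of them passing. All 16 measured genes of the list had a difference above 0, where 53.9% of all genes did, and the list's median was 0.61. At an unadjusted p under 0.05, 6 of the 16 were higher, against 4.85% of all genes, and 0 lower. Gzmb, which encodes granzyme B, had 9.02, 8.46, 8.97, 9.49, 8.69 and 10.02 in DIO-ICR tumors, against 7.01, 8.14, 9.12, 7.25, 8.07 and 8.04 in DIO-VSG tumors. DIO-VSG tumor 3 alone lay within the DIO-ICR range, and the difference was 1.17 ± 0.39 (adjusted p = 0.369). Gzmc and Gzma, further granzymes, differed by 1.37 ± 0.48 (adjusted p = 0.393) and 1.15 ± 0.41 (adjusted p = 0.416). Ifng, the gene of interferon gamma, measured 5.63 to 7.01 in DIO-ICR tumors and 5.01 to 6.26 in DIO-VSG tumors, a difference of 0.85 ± 0.31 (adjusted p = 0.441).

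The list's median was 0.86 without the lymph node tumors, 0.54 without the muscle tumors and 0.84 without either. Eomes, a transcription factor of killer cells, passed without the lymph node tumors (1.25, adjusted p = 0.0469) but not among all 12 (0.74, adjusted p = 0.618). Natural killer receptors had a median of 0.58, with 11 of 12 measured genes higher in sign (53.9% of all genes) and 5 of them higher at an unadjusted p under 0.05 (4.85%), or 3 without the muscle tumors. Klrk1, the activating receptor NKG2D, had 9.39, 8.45, 8.34, 8.43, 8.49 and 9.35 in DIO-ICR tumors, against 7.97, 7.46, 8.42, 7.44, 7.43 and 7.76 in DIO-VSG tumors, a difference of 0.99 ± 0.28 (adjusted p = 0.314). Ncr1, the killer-cell receptor NKp46, differed by 1.31 ± 0.37 (adjusted p = 0.315), and by 2.27 without tumors of either kind. Klrd1 and Klrb1c, further receptors of these cells, differed by 1.13 ± 0.33 (adjusted p = 0.315) and 0.96 ± 0.33 (adjusted p = 0.39).

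The T cell list had a median of 0.20 over 16 measured genes, of which 11 were higher in sign (53.9% of all genes) and none passed. The T cell score was 2.83 in DIO-VSG tumor 1 against -0.60 to 0.03 in the other DIO-VSG tumors and -0.07 to 1.02 in DIO-ICR tumors. The direction of this list turned with the setting. Its median was 0.67 without the lymph node tumors, 0.01 without the muscle tumors and -0.31 once the adipocyte score was a covariate, with 14 of 16 genes lower in sign. Icos, a costimulatory receptor, had 10.07, 11.01, 9.12, 9.39, 10.08 and 10.30 in DIO-ICR tumors, against 11.41, 8.73, 8.99, 8.12, 8.92 and 7.63 in DIO-VSG tumors (1.03 ± 0.43, adjusted p = 0.521). All DIO-ICR tumors lay above every DIO-VSG tumor except tumor 1. Cd8a, which marks cytotoxic T cells, had 7.51, 8.34, 7.83, 8.41, 7 and 9.24 in DIO-ICR tumors, against 10.95, 7.54, 6.75, 6.93, 7.45 and 6.92 in DIO-VSG tumors. DIO-VSG tumor 1 was the highest of all 12, and the difference was 0.30 ± 0.61 (adjusted p = 0.952), 1.02 without the lymph node tumors and -0.16 without the muscle tumors. Cd3d, a chain of the T cell receptor complex, differed by 0.72 ± 0.43 (adjusted p = 0.708) and Cd4, which marks helper T cells, by 0.28 ± 0.29 (adjusted p = 0.866).

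Among checkpoint and regulatory T cell genes the median was 0.33, with 5 of 13 measured genes higher at an unadjusted p under 0.05 (4.85% of all genes) and none passing. Tnfrsf18, the costimulatory receptor GITR, averaged 8.16 ± 0.44 in DIO-ICR tumors and 7.12 ± 0.70 in DIO-VSG tumors (SD, n = 6 each, adjusted p = 0.315). Tnfrsf4, the receptor OX40, differed by 0.91 ± 0.32 (adjusted p = 0.393), Pdcd1lg2, the ligand PD-L2, by 1.58 ± 0.58 (adjusted p = 0.435), and the inhibitory receptor gene Ctla4 by 1.0 ± 0.38 (adjusted p = 0.458). Cd274, the ligand PD-L1, averaged 12.55 ± 0.44 in DIO-ICR tumors and 12.54 ± 0.46 in DIO-VSG tumors, a difference of 0.01 ± 0.25 (adjusted p = 0.996). Interferon gamma response genes had a median of 0.07, with 0 of 20 at an unadjusted p under 0.05 (8.37% of all genes). Wars, a transfer RNA ligase, differed by 0.19 ± 0.13 (adjusted p = 0.747) and Iigp1, a GTPase of defense inside cells, by 0.42 ± 0.30 (adjusted p = 0.786). Cxcl9, the chemokine that interferon gamma induces, measured 12.67 to 14.14 in DIO-ICR tumors and 12.15 to 13.77 in DIO-VSG tumors, a difference of 0.43 ± 0.42 (adjusted p = 0.854).

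B cell genes were high in DIO-VSG tumor 1 and some of them also in DIO-VSG tumor 5, the other lymph node tumor, and low in all the rest. Cd79a, a chain of the B cell receptor, had 3.72, 4.07, 4.27, 3.67, 3.99 and 3.83 in DIO-ICR tumors, against 12.68, 3.92, 3.96, 4.14, 6.41 and 4.01 in DIO-VSG tumors. Jchain, which joins antibody units in plasma cells, measured 12.03 and 8.36 in DIO-VSG tumors 1 and 5, 2.90 to 4.96 in the other DIO-VSG tumors and 2.87 to 3.94 in DIO-ICR tumors. Blk, a kinase of B cell signaling, was 9.89 in DIO-VSG tumor 1, beside 4.18 to 5.32 in the other DIO-VSG tumors and 4.25 to 4.85 in DIO-ICR tumors (adjusted p = 0.521). The median of the 11 measured genes was -1.07 among all tumors and 0.16 without the lymph node tumors. The lymph node list moved likewise, -0.83 among all tumors and 0.16 without them, and so did the muscle list, at -0.92 among all tumors and 0.05 without the muscle tumors. Of the lymph node genes, Glycam1, a mucin of its vessels, differed by -2.42 ± 1.26 (adjusted p = 0.635) and Fcer2a, an IgE receptor of B cells, by -0.83 ± 0.42 (adjusted p = 0.622). Myh2, a muscle myosin, was 10.44 in DIO-VSG tumor 4 and 5.75 in tumor 3, against 3.04 to 4.12 in DIO-ICR tumors. Acta1, the skeletal actin gene, reached 13.72 in DIO-VSG tumor 4 and 8.71 in tumor 3, against 3.87 to 4.53 in DIO-ICR tumors.

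Monocyte and macrophage genes had a median of 0.02, with 11 of 22 higher and 11 lower in sign and none passing. Adgre1, a surface protein of mouse macrophages, averaged 12.47 ± 0.51 in DIO-ICR tumors and 12.19 ± 0.14 in DIO-VSG tumors (SD, n = 6 each, adjusted p = 0.829). C1qc, a chain of the complement protein C1q made by macrophages, lay between 11.21 and 12.13 in DIO-ICR tumors and between 10.66 and 11.15 in DIO-VSG tumors, without overlap (difference 0.67 ± 0.27, adjusted p = 0.5). Fcrls, an Fc receptor-like gene of tissue macrophages, differed by -1.29 ± 0.45 (adjusted p = 0.393), Plac8, a gene of young monocytes and neutrophils, by -0.88 ± 0.32 (adjusted p = 0.43), and Cd163, the macrophage receptor for hemoglobin, by 1.38 ± 0.54 (adjusted p = 0.482).

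Some genes that interleukin 4 induces in mouse macrophages and dendritic cells were looked up after their values had been seen, and none of them passed. Retnla had 8.65, 8.56, 6.36, 7.91, 9.82 and 8.02 in DIO-ICR tumors, against 8.61, 3.89, 3.42, 3.00, 2.81 and 5.06 in DIO-VSG tumors. All DIO-ICR tumors lay above every DIO-VSG tumor except the lymph node tumor 1, with a difference of 3.75 ± 1.02 (adjusted p = 0.31). Retnla is also made by adipose tissue, and its difference was 2.35 with the adipocyte score as a covariate. Mgl2 and Clec10a, lectins of such cells, differed by 1.51 ± 0.36 (adjusted p = 0.215) and 1.15 ± 0.31 (adjusted p = 0.31), and Clec10a passed without the lymph node tumors (1.40, adjusted p = 0.0355). Ccl22, a chemokine for regulatory and helper T cells, differed by 1.84 ± 0.59 (adjusted p = 0.337). With the opposite sign, Chil3 differed by -0.71 ± 0.49 (adjusted p = 0.765) and Arg1 by -0.24 ± 1.07 (adjusted p = 0.979).

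Dendritic cell genes had a median of 0.14, with 3 of 12 higher at an unadjusted p under 0.05 (4.85% of all genes). Batf3, a transcription factor of cross-presenting dendritic cells, averaged 5.03 ± 0.82 in DIO-ICR tumors and 4.07 ± 0.66 in DIO-VSG tumors (SD, n = 6 each, adjusted p = 0.319), and the surface lectin gene Cd209a differed by 1.22 ± 0.37 (adjusted p = 0.315). Mast cell and basophil genes had a median of 0.30. Cpa3, a mast cell protease, differed by 0.99 ± 0.35 (adjusted p = 0.393), whereas Hdc, which makes histamine in mast cells and in neutrophils, differed by -1.0 ± 0.38 (adjusted p = 0.451).

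Targets of NF-kB and TNF had a median of -0.17, with 6 of 25 measured genes lower (3.52% of all genes) and 0 higher (4.85%) at an unadjusted p under 0.05, and none passed. Those counts were 1 lower and 2 higher without the muscle tumors, and likewise with an adipocyte covariate. They were 9 lower and 0 higher without the lymph node tumors, and 3 lower and 1 higher without either kind. With the lymph node and muscle scores as covariates they were 6 lower and 1 higher. Cxcl2, a chemokine that attracts neutrophils through Cxcr2, had 7.93, 7.74, 7.28, 8.37, 6.01 and 6.77 in DIO-ICR tumors, against 6.90, 11.14, 10.76, 10.17, 8.96 and 9.71 in DIO-VSG tumors. Only DIO-VSG tumor 1 lay in the DIO-ICR range, and the difference was -2.26 ± 0.81 (adjusted p = 0.413), or -3.10 without the lymph node tumors. Il1b, the gene of interleukin 1 beta, differed by -0.96 ± 0.39 (adjusted p = 0.492), and the inflammasome sensor gene Nlrp3 by -0.59 ± 0.25 (adjusted p = 0.521). Il33, an alarmin of the interleukin 1 family chosen after its values had been seen, differed by -1.49 ± 0.48 (adjusted p = 0.337).

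Adipocyte genes were mostly higher in sign in DIO-ICR tumors, and none passed among all 12 tumors. The median was 0.92, and 15 of 16 measured genes were higher in sign (53.9% of all genes), 4 of them at an unadjusted p under 0.05 (4.85%). That count was 12 without the lymph node tumors, 0 without the muscle tumors and 7 without either kind, where the median was 1.44. The remaining gene, Ppp1r3c, which directs a phosphatase to glycogen, was lower at an unadjusted p under 0.05, as 3.52% of all genes were. It had 2.21 to 3.46 in DIO-ICR tumors and 3.07 to 6.39 in DIO-VSG tumors, highest in the muscle tumor 4, a difference of -1.26 ± 0.38 (adjusted p = 0.316), or -0.63 without the muscle tumors. Adipoq, the adiponectin gene, measured 11.20, 9.68, 10.14, 10.42, 12.05 and 10.86 in DIO-ICR tumors, against 13.40, 6.83, 4.40, 4.55, 10.43 and 6.78 in DIO-VSG tumors. The lymph node tumors 1 and 5 were the only DIO-VSG tumors at or above the lowest DIO-ICR level, and the difference was 2.99 ± 1.23 (adjusted p = 0.512). Retn, the gene of the hormone resistin, had 10.60, 9.49, 7.99, 10.26, 10.28 and 10.55 in DIO-ICR tumors, against 11.96, 5.58, 3.45, 4.22, 9.54 and 4.66 in DIO-VSG tumors, a difference of 3.29 ± 1.06 (adjusted p = 0.337). Without the lymph node tumors Retn and the lipid droplet gene Cidec passed, at 5.38 (adjusted p = 0.00502) and 3.61 (adjusted p = 0.0469). Lep, the leptin gene, differed by 1.32 ± 0.72 (adjusted p = 0.669).

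Lipogenic genes had a median of 0.23, with 12 of 13 higher in sign (53.9% of all genes), and the median was -0.07 once the adipocyte score entered the fit. Elovl6, which lengthens fatty acids, averaged 13.22 ± 0.32 in DIO-ICR tumors and 12.77 ± 0.28 in DIO-VSG tumors (SD, n = 6 each, adjusted p = 0.352). Thrsp, a lipogenic factor abundant in fat, differed by 2.01 ± 1.13 (adjusted p = 0.675) and by 0.24 with the covariate. Major urinary proteins are secreted carriers of pheromones. Of 6 measured genes of the family, 3 near-identical ones, whose separate values are uncertain, were higher at an unadjusted p under 0.05 (4.85% of all genes). That count was 4 without the lymph node tumors, and 0 without the muscle tumors, without either kind or with the adipocyte covariate. Mup2 differed by 1.91 ± 0.83 (adjusted p = 0.531). Mup19 ranged between 8.96 and 12.81 in DIO-ICR tumors and between 5.87 and 10.70 in DIO-VSG tumors (difference 1.97 ± 0.88, adjusted p = 0.541). Mammary epithelial genes had a median of 0.05, which was 0.42 without the lymph node tumors, -0.23 without the muscle tumors and -0.25 once the adipocyte score entered the fit. The milk protein gene Wap differed by -0.27 ± 0.16 (adjusted p = 0.695). Csn3, another milk protein gene, differed by 1.15 ± 0.67 (adjusted p = 0.702), with its highest value, 10.80, in DIO-VSG tumor 1, and passed without the lymph node tumors (2.39, adjusted p = 0.0202).

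Endothelial genes were all lower in sign in DIO-ICR tumors, 15 of 15 (45.7% of all genes), with a median of -0.47 and 9 of them lower at an unadjusted p under 0.05 (3.52%), though none passed. The count of 9 was 3 without the lymph node tumors, 7 without the muscle tumors and 0 without either, where 13 of 15 were lower in sign. Cdh5, the junction protein of vessels, had 10.88, 9.93, 9.71, 10.17, 10.82 and 9.68 in DIO-ICR tumors, against 11.59, 10.44, 11.05, 11.30, 11.13 and 11.21 in DIO-VSG tumors, a difference of -0.92 ± 0.26 (adjusted p = 0.314). Pecam1, another junction protein, did not overlap, with 10.14 to 10.88 in DIO-ICR tumors and 10.90 to 12.31 in DIO-VSG tumors (-0.64 ± 0.23, adjusted p = 0.418). Emcn, a sialoprotein of veins and capillaries, differed by -0.88 ± 0.28 (adjusted p = 0.337) and Cldn5, a protein of tight junctions, by -1.05 ± 0.35 (adjusted p = 0.369), or -0.42 without the lymph node tumors. The endothelial score was highest in DIO-VSG tumor 1, at 0.78, and without tumors of either kind the list's median was -0.25. How far vessels of neighboring tissue entered these values was not tested.

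Collagen and matrix genes had a median of -0.37, with 22 of 24 lower in sign (45.7% of all genes). At an unadjusted p under 0.05, 1 of 24 was lower, near the 3.52% of all genes. Sparc, a collagen-binding matrix protein, averaged 15.37 ± 0.23 in DIO-ICR tumors and 15.87 ± 0.30 in DIO-VSG tumors (SD, n = 6 each, adjusted p = 0.337). Thbs1, the matrix protein thrombospondin 1, differed by -1.14 ± 0.65 (adjusted p = 0.684). Col1a1, the main fibrillar collagen, measured 9.40 to 12.44 in DIO-ICR tumors and 10.09 to 13.11 in DIO-VSG tumors (-0.60 ± 0.59, adjusted p = 0.857). The list's median was -0.10 without the muscle tumors and -0.06 without either kind, where Col1a1 differed by 0.45.

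Cholesterol synthesis genes were all higher in sign in DIO-ICR tumors, 18 of 18 (53.9% of all genes), with a median of 0.38 and 9 of them higher at an unadjusted p under 0.05 (4.85%), and none passed. Sqle, which oxidizes squalene, had 13, 12.80, 13.26, 13.38, 13.33 and 12.89 in DIO-ICR tumors, against 11.70, 12.93, 12.85, 12.94, 12.45 and 12.45 in DIO-VSG tumors. The lymph node tumor 1 was the lowest DIO-VSG tumor for Sqle, and the difference was 0.56 ± 0.18 (adjusted p = 0.337), or 0.32 without the lymph node tumors. Hsd17b7 and Sc5d, enzymes of later steps, differed by 0.52 ± 0.17 (adjusted p = 0.337) and 0.38 ± 0.13 (adjusted p = 0.371), and Insig1, the sterol sensor that restrains the pathway, by 0.59 ± 0.22 (adjusted p = 0.451). Without the lymph node tumors the list's median was 0.22, and 0 of its 18 genes reached an unadjusted p under 0.05. Without the muscle tumors the median was 0.56, with 12 genes higher at that threshold. Without either kind it was 0.38, with 3 genes higher and 18 of 18 higher in sign.

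Cell cycle genes had a median of 0.11, and 23 of 25 were higher in sign (53.9% of all genes), 5 of them at an unadjusted p under 0.05 (4.85%). Ccna2, the cyclin of S phase and entry into mitosis, lay between 14.43 and 14.67 in DIO-ICR tumors and between 13.98 and 14.33 in DIO-VSG tumors, without overlap, at a difference of 0.31 ± 0.10 (adjusted p = 0.317). Tk1 and Rrm2, which make building blocks of DNA, differed by 0.53 ± 0.17 (adjusted p = 0.321) and 0.38 ± 0.14 (adjusted p = 0.433), and Mki67 by 0.17 ± 0.12 (adjusted p = 0.799). Cell cycle scores lay between -0.06 and 0.17 in DIO-ICR tumors and between -0.38 and 0.03 in DIO-VSG tumors, with the lowest in DIO-VSG tumor 1, the tumor with the most lymph node RNA. The list's median was 0.10 without the lymph node tumors, 0.16 without the muscle tumors and 0.13 without either. In these settings 5, 5 and 4 genes were higher at an unadjusted p under 0.05.

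Iron genes split, with a median of 0.05. Beside Tfrc, Slc40a1, the iron exporter ferroportin, ranged between 5.81 and 7.89 in DIO-ICR tumors and between 7.72 and 10.68 in DIO-VSG tumors (-1.87 ± 0.61, adjusted p = 0.349). Spic, a transcription factor of iron-recycling macrophages, lay between 6.40 and 8.45 in DIO-ICR tumors, below 8.77 to 10.75 in DIO-VSG tumors (-1.82 ± 0.53, adjusted p = 0.315). Lcn2, which binds bacterial iron carriers and is stored in neutrophil granules, differed by -1.79 ± 0.75 (adjusted p = 0.521). The importer was thus higher and the exporter lower in sign in DIO-ICR tumors.

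Genes of hormone, clock and amino acid pathways had medians near that of all genes. In the insulin and IGF axis the median was -0.11. At an unadjusted p under 0.05, 3 of its 16 measured genes were lower (3.52% of all genes) and 0 higher (4.85%). Igfbp3, a carrier of insulin-like growth factors, had 10, 9.01, 10.07, 9.27, 10.31 and 9.08 in DIO-ICR tumors, against 10.36, 10.67, 10.54, 11.20, 11.32 and 11.01 in DIO-VSG tumors. These values did not overlap, and the difference of -1.23 ± 0.35 did not pass (adjusted p = 0.315). Igfbp7, a related secreted protein, differed by -0.55 ± 0.20 (adjusted p = 0.444). Clock genes had a median of 0.07, and 4 of 18 reached an unadjusted p under 0.05 (8.37% of all genes), namely Cry1 (0.50 ± 0.15, adjusted p = 0.315) and Per2 (0.59 ± 0.22, adjusted p = 0.442), repressors of the clock, and Nr1d1 (-0.59 ± 0.20, adjusted p = 0.385) and Nr1d2 (-0.50 ± 0.17, adjusted p = 0.381), its REV-ERB receptors. Among amino acid transporters the median was 0.09, and Slc7a11, the cystine importer, differed by -1.46 ± 0.46 (adjusted p = 0.337) and Slc7a1, an importer of arginine and lysine, by 0.17 ± 0.12 (adjusted p = 0.769).

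**Figure D4:**
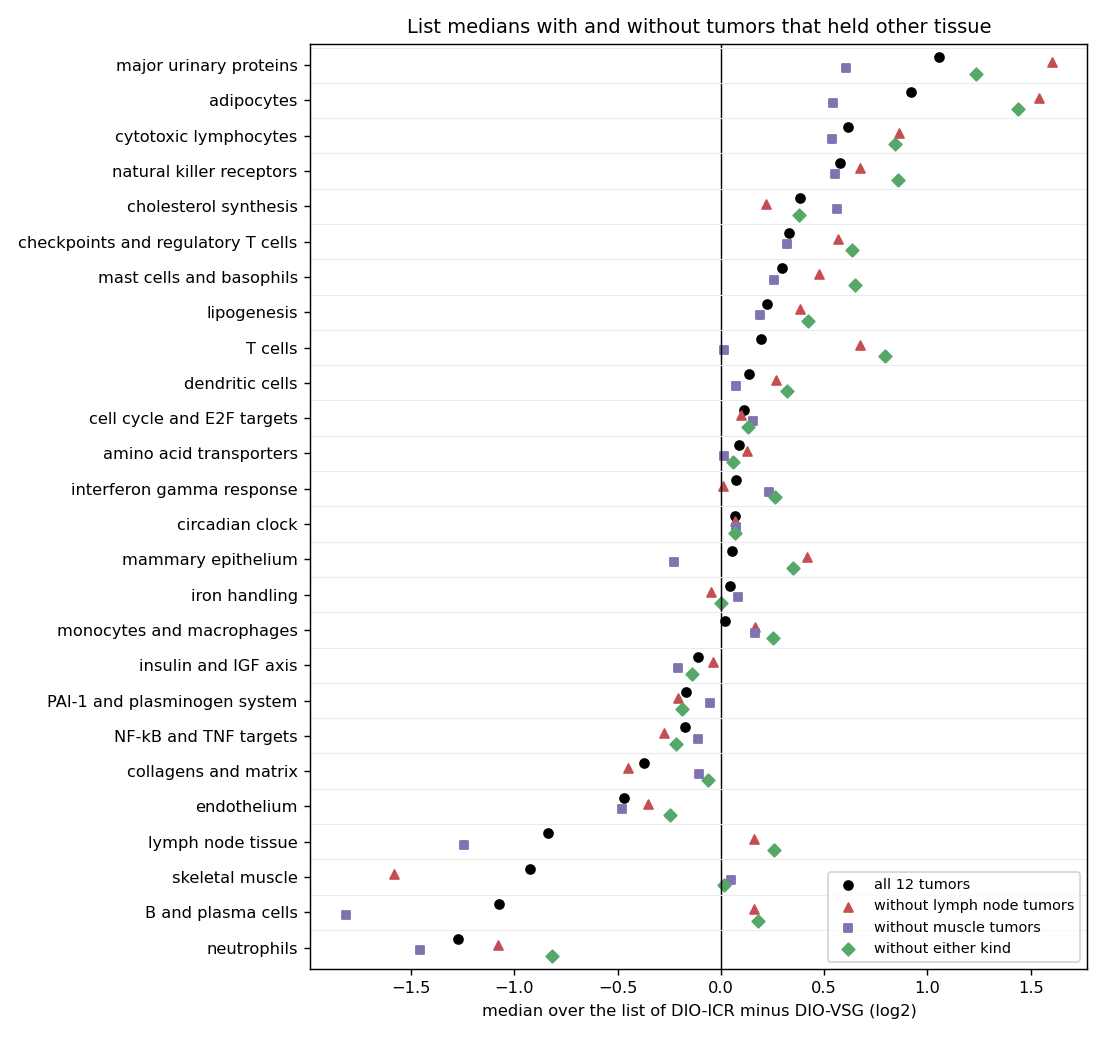
Median over each of 26 gene lists of the difference DIO-ICR minus DIO-VSG on the log2 scale, among all 12 tumors and after leaving out lymph node tumors, muscle tumors or both. Without the lymph node tumors the B cell median was 0.16 in place of -1.07, and the neutrophil median stayed below 0 in each case, between -1.46 and -0.82.

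The tumors of obese DIO-HFD mice served as a common background for both groups, so the following pairs of values share those 6 tumors. DIO-HFD tumor 5 was itself a lymph node tumor, with a score of 2.85, and 4 DIO-VSG tumors were lymph node or muscle tumors. CON-LFD tumor 5 was a muscle tumor, with a score of 2.47. How far these tissues entered the comparisons with DIO-HFD was not tested. Against DIO-HFD, 90 genes passed in DIO-ICR tumors (0.461%), 57 higher (0.292%) and 33 lower (0.169%), and 30 in DIO-VSG tumors (0.154%), 20 higher (0.103%) and 10 lower (0.0513%). At an unadjusted p under 0.05 the shares were 10.8% in DIO-ICR tumors and 10.4% in DIO-VSG tumors. S100a9 differed from DIO-HFD by -0.47 ± 0.67 in DIO-ICR tumors (adjusted p = 0.884) and rose by 3.48 ± 0.67 in DIO-VSG tumors (adjusted p = 0.0292). Retnlg likewise differed by -0.04 in DIO-ICR tumors (adjusted p = 0.995) and rose by 3.86 in DIO-VSG tumors (adjusted p = 0.0291). S100a9 averaged 6.28 in DIO-ICR, 10.23 in DIO-VSG, 7.45 in DIO-CCR, 6.75 in DIO-HFD and 10.38 in CON-LFD tumors.

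Plat and Mmp25 stood the other way, with the larger difference from DIO-HFD in DIO-ICR tumors. Mmp25 rose by 1.23 ± 0.24 in DIO-ICR tumors (adjusted p = 0.0234) and differed by -0.05 in DIO-VSG tumors (adjusted p = 0.961). Plat differed by -1.0 ± 0.25 in DIO-ICR tumors (adjusted p = 0.0618) and by 0.45 in DIO-VSG tumors (adjusted p = 0.553). Klrk1 rose by 1.60 in DIO-ICR tumors (adjusted p = 0.0111) and differed by 0.61 in DIO-VSG tumors (adjusted p = 0.446), Gzmb rose by 1.70 (adjusted p = 0.0432) and differed by 0.53 (adjusted p = 0.666), and Retn rose by 5.18 (adjusted p = 0.0255) and differed by 1.89 (adjusted p = 0.557). The difference between DIO-ICR and DIO-VSG tumors itself did not pass for Klrk1, Gzmb or Retn.

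Whether the values belonged to intermittent restriction or to restriction in general was asked against DIO-CCR tumors. No gene passed between DIO-ICR and DIO-CCR tumors in limma (0%), with 928 at an unadjusted p under 0.05 (4.76%). The 6 genes differed there by -1.17 for S100a9, -0.39 for Retnlg, -0.13 for Plat, 0.34 for Mmp25, 0.07 for Sgpp1 and -0.23 for Txndc8, each with an adjusted p of 0.999.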

How the data were processed

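RNA of 30 tumors was measured by the authors on Mouse Clariom S arrays in a peg plate format, 1 array per tumor, and read on a GeneTitan scanner. What they deposited are log2 expression levels, made by the authors by signal space transformation and robust multichip averaging in the Transcriptome Analysis Console, and they were used as deposited. The table held 22206 probe sets and 0 missing values. A single gene symbol was paired with 19572 probe sets and none with 2634. The brightest probe set stood for each of 55 symbols that had several, and 19505 genes remained. The sources used here do not give the array's genome build. The array files name no batch. No 2 arrays were identical, and arrays of a group correlated at 0.975 to 0.994.

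A mean per group was fitted to all 30 arrays in limma 3.58.1 (R 4.3.3), with 25 residual and 3.43 prior degrees of freedom, and its empirical Bayes step used neither a trend nor robust estimation. Benjamini-Hochberg adjustment ran over all 19505 genes, and a gene passed where its adjusted p was under 0.05. Unless marked SD, ± gives the standard error of a difference. The script was tested on simulated data.

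The comparison, gene lists and genes were chosen with earlier results of these data known. Named are the genes that passed, filled up to 20 by p-value without gene models, 2 to 4 genes of smallest p for each of 26 lists, a panel of 10 genes (Adipoq, Lep, Cd8a, Gzmb, Ifng, Adgre1, Mki67, Cxcl9, Cd274 and Col1a1), and a few genes said to be chosen after their values were seen, to which Krt8, Epcam, S100a8, Cxcr2, Ngp, Sorl1, Mpo, Elane, Camp and Eomes belong. Lists were described by counts and medians and were not tested. Alternatives were quantile normalization, median centring, leaving out each tumor, the lymph node or muscle tumors or the 30% dimmest genes, score covariates, a fit of 12 arrays, other moderation, array weights and all probe sets.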

Additional observations from a re-analysis of the deposited data

Results flagged for a closer look

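Tumors far from the rest of their group were looked for in 78 sets of 6 values, each a named gene or a tissue score in 1 group. The rule used is one that chance meets in about 1 of 20 sets, and it was met in 11 sets. These sets covered only part of the named genes and scores. Outside them, DIO-VSG tumor 1 also stood apart in its T cell score, 2.83 beside -0.60 to 0.03 in the other DIO-VSG tumors. Its B and plasma cell score was 6.12 beside -0.07 to 1.62.

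In DIO-ICR tumors, Plat was 11.52 in tumor 1 beside 10.38 to 10.77 in the other 5, and this was the only DIO-ICR tumor in the DIO-VSG range for Plat. Mmp8 was 3.48 in DIO-ICR tumor 5 beside 5.08 to 5.81 in the others, and the same tumor had the highest leptin level of its group, with Lep at 8.63 beside 6.01 to 6.85, and the highest adipocyte score, 1.70. The cytotoxic lymphocyte score was 1.12 in DIO-ICR tumor 6 beside 0.35 to 0.51 in the others, and Gzmb, Ifng and Cd8a had their highest DIO-ICR values in that tumor, 10.02, 7.01 and 9.24.

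In DIO-VSG tumors, 5 of the flagged values belonged to tumor 1. Its lymph node score was 5.80 beside -0.31 to 1.38 in the other DIO-VSG tumors, its mammary epithelium score 2.24 beside -0.33 to 0.37, and its levels of Cd8a 10.95 beside 6.75 to 7.54, of Lep 9.11 beside 3.81 to 5.26 and of Disp2 9.95 beside 10.72 to 11.02. The muscle score was 5.53 in DIO-VSG tumor 4 beside -0.16 to 1.91 in the others. Ch25h was 10.17 in DIO-VSG tumor 3, which also held muscle transcripts, beside 8.30 to 9.0 in the others.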

How the results depend on the processing

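The number of genes that passed between DIO-ICR and DIO-VSG tumors, 6 among all tumors, was 15 without the lymph node tumors, 2 without the muscle tumors, 0 without either kind (1504 at an unadjusted p under 0.05 in limma), 16 with the adipocyte score as a covariate, 3 with the lymph node and muscle scores as covariates, 3 with array weights and 2 with all probe sets in place of the brightest per symbol. It was 6 after quantile normalization, 5 after centring and 5 without the 30% dimmest genes, 4 with only 12 arrays and 4 with trend and robust moderation. Leaving out 1 tumor gave 0 to 7. The fit of all probe sets was not tallied by gene. Of the 23 other alternatives, S100a9 passed in 13, Plat in 12, Retnlg in 8, Mmp25 in 7 and Sgpp1 in 6. Txndc8 passed in 4 of 22, and each gene kept 1 direction throughout. The causes of these changes were not tested, and the fits that left tumors out also held fewer tumors. The direction of Cd8a turned, to -0.16 without the muscle tumors and -0.33 with the adipocyte covariate. That of Cd274 turned to -0.021 after quantile normalization, -0.10 without the lymph node tumors and -0.15 with both score covariates, and ranged between -0.071 and 0.187 when 1 tumor was left out. That of Col1a1 turned to 0.45 without tumors of either kind and 0.24 with both score covariates. With both score covariates, chosen for list medians after the data were seen, the neutrophil median was -0.93. The T cell median turned to -0.31 and the mammary epithelium median to -0.25 with the adipocyte covariate. No paired analysis was possible because the labels give the tumors of different groups no shared replicate number. Signal near the bottom of the scale, as for Txndc8, Ngp and Jchain and for Retnlg in DIO-ICR tumors, limits what a low value can show.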
